A study of Mus musculus with 6 samples.

Results

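Irf4 encodes interferon regulatory factor 4, and its transcript was followed here through adipocyte, stromal and immune nuclei of mouse white adipose tissue. It is 1 of the 56980 genes listed in the count tables, under the identifier ENSMUSG00000021356, and was found by its symbol. Irf4 was chosen from its values in adipocyte nuclei of subcutaneous adipose tissue (SAT) at 2 and 24 months, where it fell with age, so that contrast is given as a description with no test. Of 27074 nuclei kept from 50859 barcodes, 1846 held at least 1 Irf4 unique molecular identifier (UMI, a tag that counts 1 captured RNA molecule once).

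The nuclei came from female C57BL/6J mice, and 3 groups of 2 single-nucleus RNA libraries each were used. Inguinal SAT was sampled at 2 months and at 24 months, and the gonadal depot, a visceral adipose tissue (VAT), only at the older age. The age of 24 months is that of the labels, and a slightly greater one stands elsewhere. No group carried a transgene or a drug treatment. A pair of mice was taken for each age, so the SAT and VAT libraries at 24 months may share animals, and which libraries would share one was not stated. VAT at 2 months was not used here, so the age contrast exists for SAT alone. With 2 libraries in each group, p-values measure the spread between these libraries only.

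IRF4 belongs to a family of DNA-binding proteins that were first known from the interferon response. In lymphocytes and dendritic cells it acts with partners such as PU.1, SPIB and the BATF and JUN proteins, and is needed for plasma cell formation, for regulatory T cell function and for several helper T cell programmes. In macrophages it is linked to the response to interleukin 4, and in adipocytes it is known as a fasting-induced factor that is held down by insulin through FOXO1 and that favours lipolysis and, with PGC-1α, thermogenesis.

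Irf4 lies on the forward strand of chromosome 13, at chr13:30933209-30950959 in GRCm39, and is annotated as protein coding. The 250 bases before its RefSeq start, chr13:30932966-30933215 in GRCm39 on the forward strand, are shown because the gene differed so widely between nucleus classes. The capitals mark a TATA box and the places that match a kappaB pattern, the pattern bound by NF-kB proteins, which drive Irf4 in activated lymphocytes. The last bases of the window lie inside the GENCODE gene, whose start is set slightly upstream of the RefSeq start.
Irf4 promoter: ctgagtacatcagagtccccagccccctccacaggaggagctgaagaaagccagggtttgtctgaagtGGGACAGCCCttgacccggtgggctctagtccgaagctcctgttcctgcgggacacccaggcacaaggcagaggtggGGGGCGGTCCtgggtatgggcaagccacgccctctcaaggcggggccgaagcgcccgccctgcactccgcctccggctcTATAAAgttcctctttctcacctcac

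The TATA box, searched as TATAAA, began 26 bases before the start, and 13.0% of 27025 RefSeq promoter windows of the same length held one on either strand. The kappaB pattern (GGG, 5 free bases, CC) began 182 bases before the start, where it was read on both strands, and again 105 bases before the start. This pattern is loose, and 45.4% of the windows held it. The window held no interferon-stimulated response element (GAAA, 2 free bases, GAAA, in 3.04% of windows), no ETS-IRF element (GGAA, 2 free bases, GAAA, in 2.38%), no forkhead pattern (TGTTTAC, in 3.09%) and no AP-1 pattern (TGANTCA, in 6.87%). Its GC content was 63.6%. These are matches of letters within 1 short window, and nothing about binding was measured.

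Nuclei were grouped by clustering, and a cluster was called adipocyte-like, immune-like and so on from fixed marker genes. The plain class names below stand for these clusters. There were 6692 adipocyte nuclei, 10411 immune nuclei, 1531 fibro-adipogenic progenitors (FAPs, the stromal cells that can form adipocytes), 1087 endothelial, 1736 epithelial and 2065 mesothelial nuclei. Adipoq, Plin1, Cidec and Pparg, genes of mature adipocytes, were each over 2-fold higher in the adipocyte class than in the other nuclei. The total counts of the 6 libraries lay between 8061862 and 16226690 UMIs before filtering, and the median nucleus kept had between 1380 and 1878 UMIs. The number of adipocyte nuclei ranged from 123 in the second VAT library to 2741 in the first, and library pairs shared at most 61 barcodes.

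In adipocyte nuclei Irf4 was high in young SAT and low in both depots at 24 months. The level in counts-per-million units (CPM, the UMIs of a gene scaled to all UMIs of the summed nuclei of a class and library) was 245 and 601 in the 2 SAT libraries at 2 months, resting on 382 and 472 Irf4 UMIs. It was 9.04 and 6.22 CPM in SAT at 24 months, from 13 and 33 UMIs, and 8.71 and 10.5 CPM in VAT at 24 months, from 68 and 4 UMIs. Both young libraries lay above every older one, and the young libraries differed from each other by more than all the older ones did. The means were 423 ± 251 CPM (SD, n = 2) in SAT at 2 months, 7.63 ± 1.99 in SAT at 24 months and 9.62 ± 1.29 in VAT at 24 months. On the log2 scale the fitted change with age in SAT adipocytes was -5.74 (SE 0.46), which is the value Irf4 was chosen by and carries no test. In that contrast 14.7% of the 12428 genes tested were called in either direction by edgeR's quasi-likelihood test at an adjusted p under 0.05. Leaving out the second 2-month library gave a change of -4.95.

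The share of adipocyte nuclei in which Irf4 was seen comes from the same counts and is likewise a description. Without correction for depth, 27.3% (95% exact binomial interval 24.2% to 30.7%) and 44.5% (39.8% to 49.3%) of adipocyte nuclei held an Irf4 UMI in the 2-month libraries. The shares at 24 months were 1.66% and 1.46% in SAT and 1.90% and 3.25% in VAT. After every nucleus was thinned to 1000 UMIs they were 17.1% and 34.5% in young SAT, 1.06% and 0.656% in older SAT, and 0.620% and 0% in VAT, where 0 of 123 nuclei allows up to 2.95% by the exact interval. Single nuclei in young SAT carried up to 10 and 12 Irf4 UMIs, and 83 and 106 nuclei carried 2 or more. These intervals cover counting error only.

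Between depots at 24 months, a contrast that the choice of Irf4 did not use, its adipocyte level did not pass the test. VAT exceeded SAT by 0.38 on the log2 scale (SE 0.51), with an adjusted p of 0.941 by edgeR's quasi-likelihood test. The interval of 2 SE on either side ran from -0.64 to 1.41. Only 0.161% of genes were called between depots in adipocytes. This contrast shares the SAT libraries at 24 months with the age contrast.

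**Figure D1:**
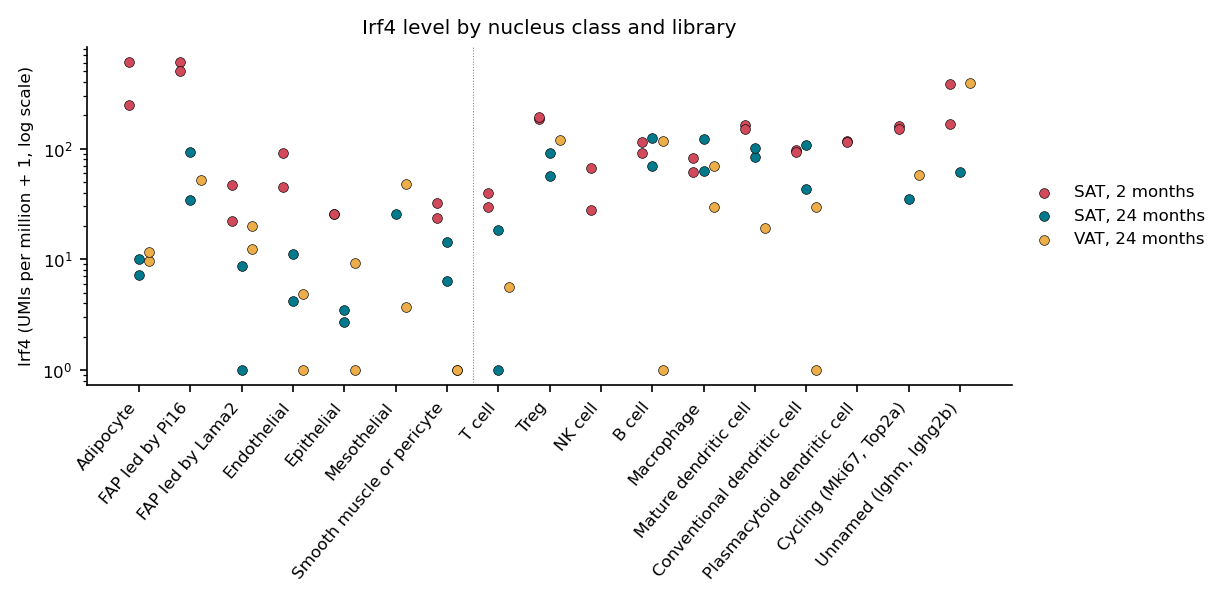
Irf4 level (CPM plus 1, log scale) in each nucleus class, where each point is 1 library with at least 10 nuclei of that class, coloured by depot and age, with immune classes and 2 immune sub-clusters (named by leading genes) to the right of the dotted line. In young SAT the adipocytes (245 and 601 CPM) and the FAP cluster led by Pi16 (600 and 497 CPM) lie above all named immune classes of the same libraries, while the unnamed sub-cluster led by Ighm and Ighg2b (385 and 167 CPM) lies above the adipocytes of the first one, and at 24 months adipocytes lie at 6.22 to 10.5 CPM.

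Adipocyte sub-clusters, made after correction between libraries, were then compared within each library. Over sub-clusters with at least 20 nuclei in a library, Irf4 ranged from 83.2 to 310 CPM in the first 2-month library (6 sub-clusters) and from 386 to 865 CPM in the second (5 sub-clusters). It ranged from 0 to 20.1 CPM and from 0 to 13.3 CPM in the SAT libraries at 24 months, and from 3.28 to 25.0 CPM and from 0 to 19.2 CPM in the VAT libraries. By CPM, no sub-cluster of an older library reached the lowest sub-cluster of a young one. After the nuclei were thinned to equal depth, the lowest share with an Irf4 UMI was 0% in the first young library and 23.9% in the second. The highest shares at 24 months were then 2.26% and 1.72% in SAT, and 2.94% and 0% in VAT. By thinned shares, the lowest sub-cluster of the first young library thus did not lie above the older ones. The sub-cluster led by the lipogenic genes Acaca and Acacb held 310 and 596 CPM in young SAT and 10.5 and 13.3 CPM in older SAT, while the one led by Gm31517 and Adamts5 held 83.2 CPM in the first young library, the lowest there, and 0 in both older SAT libraries (0 of 88 and 0 of 163 nuclei with a UMI, which allows up to 4.11% and 2.24% by the exact interval). Without the correction between libraries, the adipocytes split largely by library. A sub-cluster of 1406 nuclei, 63.8% of them from the first 2-month library, then held 996 Irf4 UMIs and 360 CPM, and the other 6 held 3.38 to 33.3 CPM, each with most of its nuclei from 1 library at 24 months.

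**Figure D2:**
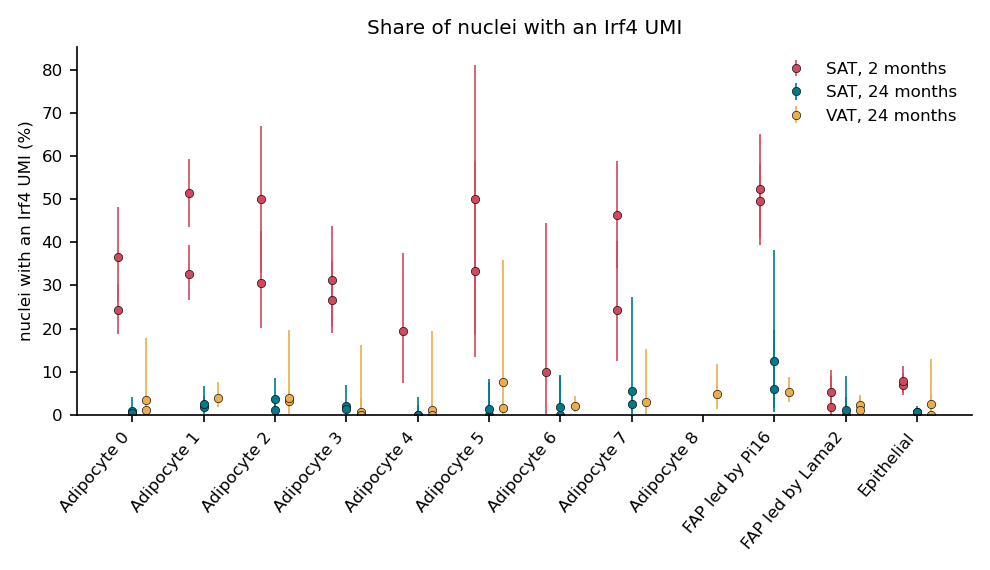
Share of nuclei with an Irf4 UMI (percent, not thinned) in the adipocyte sub-clusters, in the 2 FAP clusters and in epithelial nuclei, with 1 point for each library with at least 10 nuclei and bars for 95% exact binomial intervals. The young SAT points lie above the older ones in each adipocyte sub-cluster that has both and in the FAP cluster led by Pi16 (52.4% and 49.6% in young SAT), while the highest share in epithelial nuclei is 7.84%.

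RNA freed from broken cells can be captured with any nucleus, so the Irf4 level was set beside the RNA of 20 immune genes in the same nuclei. The summed level of these genes in adipocyte nuclei was 852 and 1394 CPM in young SAT, 268 and 237 CPM in older SAT, and 161 and 237 CPM in VAT. It thus moved with age as well, and 15 of the 20 genes were called lower with age in adipocytes and 0 higher, where 14.7% of all genes were called in either direction, with a median log2 change of -2.23 against -0.0030 over all genes. In immune nuclei their sum lay between 9802 and 12779 CPM. None of the 20 was higher in adipocyte than in immune nuclei in any library, and none was at 0 in adipocytes. The highest of them in adipocytes were Cd74, the invariant chain of antigen presentation, and Ptprc, the pan-leukocyte antigen CD45, at 123 and 71.5 CPM on average. Between depots 0 of the 20 were called in adipocytes by edgeR, where 0.161% of all genes were called. Unadjusted p-values under 0.05 were found for 6 of the 20, all lower in VAT, against 844 of 12428 genes. The median log2 difference of the 20 was -0.66, against -0.021 over all genes.

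Irf4 was then set beside these genes within each library, as a description, since Irf4 was chosen for its fall in these nuclei. The mean adipocyte level in SAT at 2 months over that at 24 months was 55.5-fold for Irf4 and 4.44-fold for the sum of the immune genes, whose lowest single fold was 1.07 for Mrc1, a macrophage receptor. In young SAT the adipocyte level of Irf4 was 2.61 and 6.34 times its own level in immune nuclei, whereas in older SAT it was 0.188 and 0.0631 times that level. For every 100 UMIs of the immune genes, adipocytes held 28.8 and 43.1 Irf4 UMIs in young SAT, against 0.861 and 0.867 in immune nuclei of the same libraries. In older SAT that ratio was 3.37 and 2.62 in adipocytes and 0.490 and 0.772 in immune nuclei.

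Adipocyte nuclei that held no UMI of any of the 20 immune genes were also taken alone. Their Irf4 level was 173 and 722 CPM in young SAT (157 and 57 nuclei), 11.0 and 5.04 CPM in older SAT (419 and 1192 nuclei), and 9.08 and 14.995 CPM in VAT (1875 and 68 nuclei). In young SAT these nuclei had median depths of 1527 and 1307 UMIs, against 1921 and 1607 UMIs in the other adipocytes. The young libraries lay above all older ones, among nuclei that entered the choice of Irf4, so this is a description.

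Epithelial nuclei, a class in which Irf4 is not known to act, gave a level to set against the adipocytes. They held 24.9 and 24.6 CPM in young SAT, 2.50 and 1.71 CPM in older SAT, and 0 and 8.32 CPM in VAT. In VAT their levels rested on 0 and 1 UMI, where 3 UMIs would be near 25.0 CPM in both libraries. Their share with an Irf4 UMI was 6.84% and 7.84% in young SAT, at median depths of 2480 and 1869 UMIs against 1850 and 1526 UMIs in the adipocytes. Adipocytes exceeded epithelial nuclei 9.87-fold and 24.5-fold in young SAT and 3.61-fold and 3.63-fold in older SAT, where the epithelial level rested on 3 UMIs in each library. Irf4 in epithelial nuclei was called lower with age by edgeR's quasi-likelihood test (log2 change -3.52, SE 0.64, adjusted p = 0.0425), where 1.08% of 12303 genes were called. The call was lost when any SAT library was left out (adjusted p from 0.421 to 0.661) and with a replicate block (adjusted p = 0.102). The epithelial sum of the immune genes fell 3.35-fold between the means, and Irf4 11.7-fold. The part of free RNA in the adipocyte levels was not tested.

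**Figure D3:**
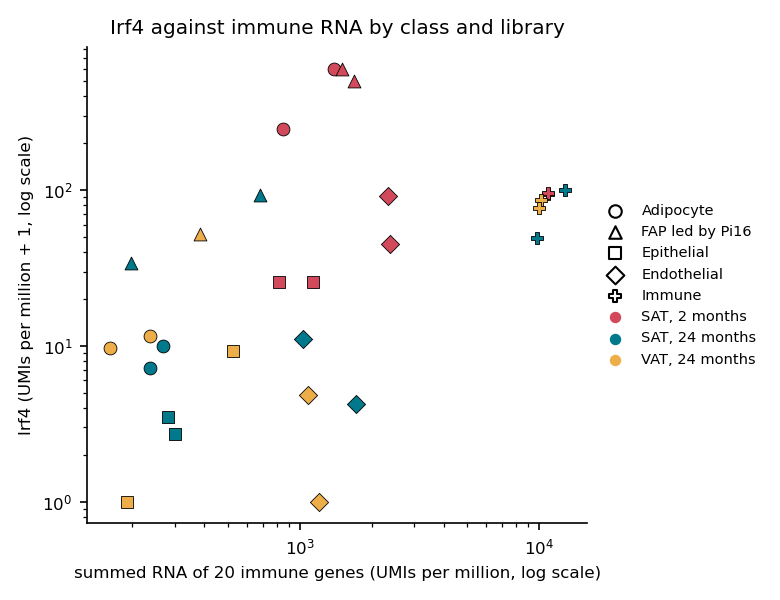
Irf4 level (CPM plus 1, log scale) against the summed level of 20 immune genes (CPM, log scale), with 1 point for each class and library, shaped by class and coloured by group. Young adipocytes and young FAPs of the cluster led by Pi16 hold more Irf4 than immune nuclei at far less immune RNA (852 and 1394 CPM in adipocytes), while the young epithelial nuclei lie at a similar level of immune RNA (820 and 1135 CPM) with less Irf4 (24.9 and 24.6 CPM).

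FAPs held Irf4 as well, and in young SAT 65 of their 79 and 147 of their 153 Irf4 UMIs lay in 1 cluster of them. FAPs as a class held 206 and 390 CPM in young SAT, 23.4 and 13.1 CPM in older SAT, and 29.2 and 11.0 CPM in VAT, so the young libraries lay above all others. The log2 change with age was -4.23 (SE 0.66) but did not pass edgeR's quasi-likelihood test (adjusted p = 0.168, unadjusted p = 6.89e-05). The summed level of the 20 immune genes moved with it, at 1351 and 1797 CPM in young SAT, 632 and 373 CPM in older SAT, and 327 and 763 CPM in VAT. Between the SAT means it was 3.13-fold higher at 2 months, against 16.3-fold for Irf4. Of these genes 16 could be tested with age in FAPs, where edgeR called 0 and 10 were lower at an unadjusted p under 0.05, with log2 changes from -7.52 to -0.26 and a median of -2.37 against -0.017 over all genes. Their part in the FAP levels was not tested. In the age contrast 0% of 8429 genes were called by edgeR, while 983 had an unadjusted p under 0.05 and DESeq2 called 38, with an adjusted p of 0.00235 for Irf4. The change passed edgeR's test when only the SAT libraries were fitted, or when either VAT library was left out (adjusted p = 5.62e-06 and 5.63e-09). Between depots the FAP difference was 0.59 (SE 0.73, adjusted p = 0.961 by edgeR).

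The FAP cluster led by Pi16, a gene that together with Dpp4 marks interstitial progenitors, was singled out after its values were seen, so its levels are a description. It held 600 and 497 CPM of Irf4 in young SAT, from 63 and 139 nuclei, and 52.4% and 49.6% of these nuclei had an Irf4 UMI. It held 91.4 and 33.0 CPM in older SAT, from 2 UMIs in each of 16 and 34 nuclei, and 51.3 CPM in the first VAT library, from 22 UMIs in 262 nuclei. The second VAT library had 2 such nuclei and no Irf4 UMI. The FAP cluster led by Lama2 held 45.7 and 21.3 CPM in young SAT, 0 and 7.63 CPM in older SAT, where 3 UMIs would be 52.0 and 11.5 CPM, and 18.9 and 11.4 CPM in VAT. The Pi16 cluster made up 31.0% and 69.8% of FAPs in young SAT, 27.6% and 15.04% in older SAT, and 39.1% and 1.14% in VAT, so the first VAT library had a larger share of it than the first young SAT library at a lower FAP level of Irf4. For every 100 immune-gene UMIs, the Pi16 cluster held 40.1 and 29.6 Irf4 UMIs in young SAT, near the values of the adipocytes there.

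Endothelial nuclei were few in young SAT, where 53 and 41 of them held 4 and 6 Irf4 UMIs (43.8 and 90.7 CPM). They held 2 and 4 UMIs in older SAT (10.1 and 3.22 CPM), from 95 and 545 nuclei, and 1 and 0 UMIs in VAT. The log2 change with age was -3.34 (SE 1.11, adjusted p = 0.319 by edgeR), with 0.0285% of genes called. Mesothelial nuclei, found almost wholly in the second VAT library, held 2.67 CPM there (12 UMIs in 1968 nuclei).

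In immune nuclei the Irf4 level passed the test in neither contrast. It was 94.0 and 94.7 CPM in young SAT, 48.0 and 98.6 CPM in older SAT, and 85.0 and 76.2 CPM in VAT, so the groups overlapped. The log2 change with age was -0.24 (SE 0.37, 2 SE interval -0.99 to 0.50, adjusted p = 0.840), and the difference of VAT from SAT was 0.08 (SE 0.39, interval -0.69 to 0.85, adjusted p = 0.969), both by edgeR's quasi-likelihood test. In both contrasts 0% of 14424 genes were called. Unadjusted p-values under 0.05 were found for 1275 genes with age and 1309 between depots, and DESeq2 called 81 and 197. Without the first older SAT library, which held the lowest value, the age change turned to 0.18. The class pools types in unlike shares. T cells other than Tregs were 3099 of 7093 immune nuclei in young SAT and 450 of 1830 in older SAT. Macrophages were 251 of 306 in the first VAT library and 156 of 1182 in the second. The sub-cluster led by Ighm and Ighg2b gave 64 of 186 Irf4 UMIs in VAT and 8 of 240 in older SAT. The part of this mix in the pooled level was not tested.

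The classes that held the Irf4 UMIs differed between young and older SAT. Adipocytes were 16.0% and 7.74% of the nuclei in young SAT and gave 33.9% and 32.7% of all Irf4 UMIs. They were 26.6% and 42.1% of the nuclei in older SAT and gave 10.7% and 15.6%. Immune nuclei were 59.4% and 75.6% of the nuclei in young SAT and gave 41.5% and 45.9% of the Irf4 UMIs. They were 41.4% and 16.9% of the nuclei in older SAT and gave 75.2% and 70.6%. In both classes the share of nuclei and the share of Irf4 UMIs thus moved in opposite directions with age.

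Among the named immune classes in young SAT, regulatory T cells (Tregs), marked by Foxp3 and Ctla4, were highest by the mean of both libraries, with 183 and 194 CPM. Tregs are a single sub-cluster, whereas other classes pool several, and the conventional dendritic sub-cluster led by H2-Eb1 was above them in both libraries (204 and 222 CPM, from 40 and 59 nuclei). Mature dendritic cells held 163 and 150 CPM, and the cycling sub-cluster led by Mki67 and Top2a held 161 and 150.4 CPM. Plasmacytoid dendritic cells held 117 and 113 CPM, B cells 89.7 and 113 CPM, conventional dendritic cells 95.2 and 93.2 CPM, macrophages 59.9 and 81.3 CPM, NK cells 65.2 and 27.0 CPM, and other T cells 28.5 and 38.3 CPM. Over the 14 named classes with values in young SAT, the order ran from the Pi16 cluster and adipocytes, whose ranges overlapped, through Tregs to epithelial nuclei as the lowest. Clear gaps between neighbours in this order were those from adipocytes to Tregs, from Tregs to mature dendritic cells, from mature to plasmacytoid dendritic cells, and from conventional dendritic cells to macrophages. The ranges of the other neighbours overlapped. In older SAT the B cells led by mean with 68.4 and 123 CPM, and adipocytes came after 9 of the 13 classes.

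Single immune types gave the following with age in SAT. In B cells, where IRF4 drives the step to plasma cells, the log2 change was -0.11 (SE 0.38, adjusted p = 0.917 by edgeR, 0.976% of genes called). In macrophages it was 0.57 (SE 0.51, adjusted p = 0.687), with 0% of genes called by edgeR, 1099 at an unadjusted p under 0.05 and 50 called by DESeq2. In mature dendritic cells, the migratory form that carries antigen to lymph nodes, levels were 163 and 150 CPM at 2 months and 82.1 and 101 CPM at 24 months. Their groups did not overlap, yet the change of -0.60 (SE 0.26) did not pass edgeR's test (adjusted p = 0.377, 1.5% of genes called).

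Conventional dendritic cells gave a log2 change of -0.22 (SE 0.60, adjusted p = 0.943 by edgeR, 2.43% of genes called). T cells other than Tregs held 17.4 and 0 CPM in older SAT, the latter from 0 UMIs in 130 nuclei, where 3 UMIs would be 16.1 CPM. Their change was -1.41 (SE 0.56, adjusted p = 0.0807 by edgeR, 14.9% of genes called), and without the first older SAT library, so against the library with no count alone, the adjusted p was 0.0124. Tregs held 90.9 CPM in the first older SAT library, 55.7 CPM from 1 UMI in 11 nuclei of the second, and 119 CPM in the second VAT library, which left too few nuclei for a fit. Macrophages alone allowed a depot contrast, with 68.3 and 28.6 CPM in VAT against 61.7 and 121 CPM in older SAT (log2 difference -0.88, SE 0.53, adjusted p = 0.980 by edgeR).

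Finer immune sub-clusters split Irf4 from Irf8, the family member closest to it in sequence. Single values here are means over libraries with at least 20 nuclei, and the sub-clusters were singled out after their values were seen. Conventional dendritic nuclei led by H2-Eb1 and H2-Aa held 139 CPM of Irf8. Their Irf4 level was 204 and 222 CPM in young SAT, 81.2 and 172 CPM in older SAT (23 and 33 nuclei), and 0 and 38.8 CPM in VAT (8 and 91 nuclei), so the young libraries lay above all others. Those led by Wdfy4 and Clec9a, genes of cross-presenting dendritic cells, held 13.3 CPM of Irf4 and 1750 CPM of Irf8, and plasmacytoid dendritic cells 115 and 2538 CPM. Macrophages led by Spp1 and Gpnmb held 17.8 CPM of Irf4. Those led by Retnla, Lyz1 and Fn1 held 101 and 184 CPM in young SAT (17 and 43 nuclei), 234 and 338 CPM in older SAT (11 and 32 nuclei), and 221 and 382 CPM in VAT (32 and 5 nuclei). Those led by Mrc1, Retnla and F13a1 held 163 and 117 CPM, then 73.2 and 133 CPM, and 60.1 and 31.3 CPM in VAT, so the ranges of these sub-clusters overlapped in young SAT and lay apart at 24 months. A further sub-cluster led by Retnla and Mrc1 held 32.1 CPM in the second older SAT library and 10.8 CPM in the first VAT library (38 nuclei each), while its young libraries, with 10 nuclei each, held 0 and 338 CPM from 0 and 6 UMIs. The T cells led by Cd8a and Cd8b1 held 20.7 CPM.

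The fixed markers put the sub-cluster led by the immunoglobulin genes Ighm and Ighg2b with the cycling nuclei. It is given no name here, since Jchain, a plasma cell gene, and the cycling genes Mki67 and Top2a were all among its leading genes. It held 385 and 167 CPM of Irf4 in young SAT (32 and 55 nuclei), 60.9 and 659 CPM in older SAT (34 and 5 nuclei), and 957 and 390.4 CPM in VAT (7 and 51 nuclei), so the groups overlapped. When libraries were clustered without correction, a cluster of 42 nuclei with plasma cell markers, led by Ighm, Ighg2b and Igha and with Jchain and Derl3 among its leading genes, stood apart. It held 62 Irf4 UMIs, or 899 CPM over all its nuclei, above every other cluster or sub-cluster of that clustering. By library it had 5 and 6 nuclei in young SAT (2 and 6 Irf4 UMIs), 3 and 2 in older SAT (1 and 2 UMIs), and 4 and 22 in VAT (14 and 37 UMIs), too few for a comparison.

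**Figure D4:**
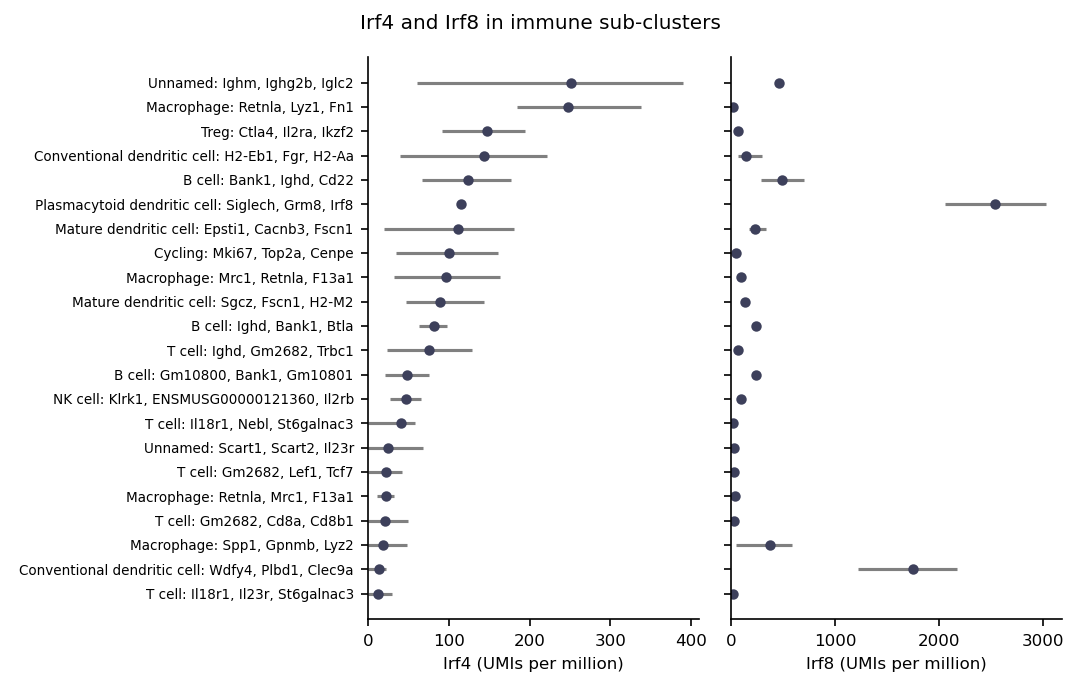
Irf4 and Irf8 levels (CPM, linear scales of different length) in immune sub-clusters named by class and 3 leading genes, with points for the mean over libraries with at least 20 nuclei and bars from the lowest to the highest library. Irf8 is high in the Clec9a dendritic (1750 CPM) and plasmacytoid dendritic (2538 CPM) sub-clusters, where Irf4 is at 13.3 and 115 CPM.

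Among the other IRF family genes in adipocytes, 7 of 8 could be tested and 2 fell with age in SAT, with 0 higher, where 14.7% of all genes were called. Irf7, a main driver of the type I interferon response, was at 75.8 and 91.6 CPM in young SAT, 23.6 and 12.8 CPM in older SAT and 16.1 and 31.6 CPM in VAT (log2 change with age -2.14, SE 0.39, adjusted p = 0.00408 by edgeR). Irf9, the DNA-binding part of the factor that answers type I interferon, was at 59.7 and 94.2 CPM, then 26.4 and 28.3 CPM, and 30.7 and 29.0 CPM in VAT (log2 change -1.33, SE 0.30, adjusted p = 0.0138 by edgeR). Both lay higher in each young library than in any older one, as Irf4 did.

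The remaining members did not pass that test. Of all 7 tested, Irf7 and Irf9 included, 5 were lower with age at an unadjusted p under 0.05 and 0 higher. Over all genes that held for 3713 of 12428, in either direction. Irf1 and Irf2, the activator and repressor first described in the family and the highest other members in adipocytes, had log2 changes of -0.77 and -0.13. Irf3, a factor activated downstream of nucleic acid sensors, had 0.71. Irf5 and Irf8, which serve in myeloid and lymphoid cells, had -1.99 and -1.57, from levels no higher than 24.2 and 53.5 CPM. The median log2 change of the 7 was -1.33, against -0.0030 over all genes and -2.23 over the 20 immune genes in the same nuclei. Under scaling by library size alone, which moved the median of all genes to -0.15, 3 of the 7 were called lower. Between depots 0 of the 7 were called in adipocytes by edgeR or DESeq2, with 0 at an unadjusted p under 0.05. In immune nuclei 0 were called in either contrast by either tool, with 1 at an unadjusted p under 0.05 in each.

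**Figure D5:**
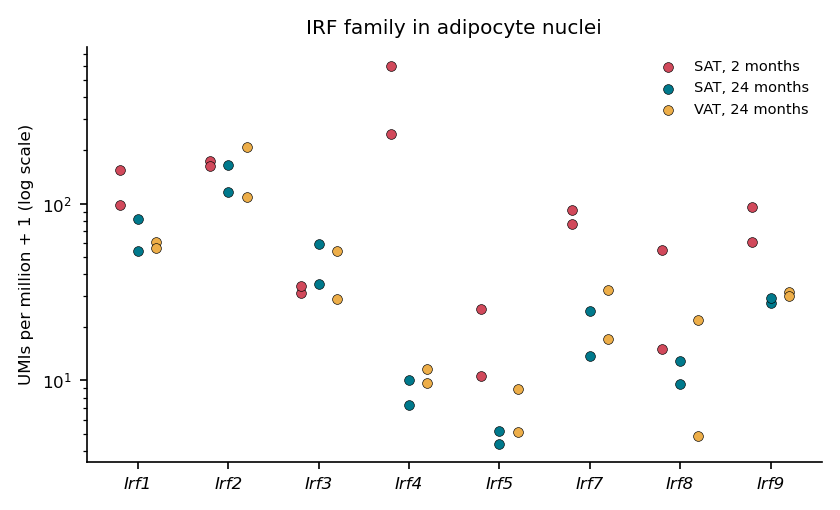
Levels of 8 IRF family genes in adipocyte nuclei (CPM plus 1, log scale), with 1 point for each library, coloured by depot and age. Irf4 shows the widest gap between young SAT (245 and 601 CPM) and the older libraries (6.22 to 10.5 CPM), with smaller gaps in Irf7 and Irf9, while Irf2 lies between 108 and 209 CPM in all libraries.

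Of the DNA-binding partners of IRF4, 10 of 12 could be tested in adipocytes, where 14.7% of all genes were called with age, and 1 fell. It was Spib, an ETS factor of B cells and plasmacytoid dendritic cells, at 12.8 and 16.6 CPM in young SAT and 2.09 CPM or less in all older libraries (log2 change -3.33, SE 0.76, adjusted p = 0.0136 by edgeR). The highest partners were Stat3, a cytokine-activated factor (171 and 190 CPM young, 86.9 to 109 CPM in the 4 older libraries, log2 change -0.66, adjusted p = 0.0787 by edgeR), and Nfatc3, a calcium-regulated factor, with a log2 change of -0.0018. The list's median was -0.55, against -0.0030 over all genes and -2.23 over the 20 immune genes in the same nuclei.

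Genes upstream of Irf4, which cover NF-kB, FOXO and insulin signalling and the demethylase Jmjd3, gave no call. Of 10 tested in adipocytes, 0 were called with age by edgeR or DESeq2, where edgeR called 14.7% of all genes. Of these 10, 1 had an unadjusted p under 0.05, and the median log2 change was -0.12. Their highest members were the insulin receptor Insr (log2 change 0.01) and its substrate Irs1 (-0.33), at 453 to 605 CPM and 355 to 566 CPM over the 6 libraries.

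Among the adipocyte genes tied to IRF4, 6 of 10 were tested and 1 rose with age, where 14.7% of all genes were called. Mgll, the lipase that splits monoglycerides, was at 336 and 318 CPM in young SAT, 703 and 771 CPM in older SAT and 544 and 621 CPM in VAT (log2 change with age 1.31, SE 0.25, adjusted p = 0.00549 by edgeR). Lipe, which encodes hormone-sensitive lipase, was at 2527 and 2463 CPM in young SAT and 1701 to 1786 CPM in the 4 older libraries, with a log2 change of -0.37 (adjusted p = 0.413 by edgeR). The median of the 6 was 0.0052.

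Of the immune genes tied to IRF4, 7 of 12 were tested in adipocytes, and 1 fell with age, where 14.7% of all genes were called. The gene that fell is not reported here. Bcl6, a transcriptional repressor needed by germinal centre B cells, was not called (log2 change 0.78, adjusted p = 0.0512 by edgeR). It was at 141 and 115 CPM in young SAT adipocytes and 191 to 281 CPM in the 4 older libraries. Over these 4 lists and the family, 1 of 40 genes tested rose and 4 fell with age in adipocytes, a share near the 14.7% of all genes called there, and 0 were called between depots by edgeR or DESeq2.

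The genes whose pattern was most like that of Irf4 were sought over 71 sums of nuclei, each 1 library and class of 15 classes, by the Pearson correlation of log2 (CPM plus 10). The sums share libraries, depth and free RNA, so this is a description. The 10 highest of 12090 genes were Irag2 (0.62), Cd37 (0.61), Ptpn6 (0.61), Ighd (0.61), Il21r (0.60), Haao (0.60), Mir142hg (0.59), Trim30a (0.58), Ncf1 (0.58) and Map4k1 (0.57). Trim30a, an interferon-induced gene, was at 281 and 624 CPM in young SAT adipocytes and between 81.6 and 143 CPM in the older libraries. The other 9 lay between 12.2 and 291 CPM in young SAT adipocytes and at 35.5 CPM or less in the older libraries. Each of them was higher in both young libraries than in any older one, as Trim30a and Irf4 were. By Spearman's correlation 6 of the 10 were again among the highest, and with 50 CPM added in place of 10 only 2 were.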

How the data were processed

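Single nuclei were profiled in 6 libraries on Singleron GEXSCOPE chips, and the authors made the deposited UMI counts with Celescope on GRCm39. The tool's version and the gene annotation are not given in the sources used here. Irf4, the gene lists and the markers were chosen with earlier results of these data known, and the rule for naming clusters was adjusted after clusters were seen. Groups came from the labels. Nuclei were kept with at least 1000 UMIs, at least 500 genes and at most 15% mitochondrial counts. Total counts and depths are in the report. Nuclei were clustered with Python 3.11.15 and scanpy 1.11.5 (1000 variable genes, 30 components corrected between libraries by a rewritten Harmony step, 20 neighbours, Leiden at resolution 2, and at resolution 1 within adipocytes and immune nuclei), and clusters were named where fixed markers led them. Of the nuclei, 2407 stayed unnamed. The automatic threshold of the Scrublet doublet score marked between 3 and 14 nuclei in a library and was taken as not having worked, so no nuclei were removed and an alternative dropped about 6% of them.

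Counts were summed per library and class (at least 20 nuclei) and tested on the deposited counts with edgeR 4.0.16 in R 4.3.3 (TMM, filterByExpr, quasi-likelihood, 3 groups in 1 fit, two-sided, Benjamini-Hochberg over all genes). DESeq2 1.42.0, library-size scaling, no filter, a replicate block, only the groups compared, uncorrected components, naming by summed markers, stricter UMI minimum and leaving out each library were the alternatives. The clustering and the test were tested on simulated data. Whether libraries of one number share a mouse is not stated, so the numbers were not used as pairs. Genes named are Irf4, the other IRF genes, list genes called at an adjusted p under 0.05, the highest 2 of each list in adipocytes and the 10 genes most like Irf4; others were named after their values were seen. Single values of some genes these rules name are not reported here. Promoter sequence came from RefSeq, and protein sequences were not used here.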

Additional observations from a re-analysis of the deposited data

Results flagged for a closer look

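Irf4 was also seen in counts outside the comparisons. Barcodes removed by the filters on UMIs, genes and mitochondrial counts held an Irf4 level of 121 and 113 CPM in young SAT, 36.4 and 31.5 CPM in older SAT, and 44.8 and 26.7 CPM in VAT. These levels stood above the limit of 3 counts in every library and were likewise higher in the young libraries. The classes of these barcodes were not determined.

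Nuclei that stayed unnamed held 255 and 436 CPM in young SAT, 35.5 and 12.3 CPM in older SAT, and 5.17 and 2.85 CPM in VAT. In young SAT these lay within or near the range of the adipocytes. An unnamed cluster of 728 nuclei, led by Gm10800 and Gm10801 with the adipocyte-cluster gene Slc1a3 among its leading genes, held 131 CPM over all libraries, and one of 212 nuclei led by Acacb and Cyp2e1 with Ighd among its leading genes held 197 CPM. Irf4 in these nuclei entered no test. With 2 libraries in a group, single libraries were not searched for extreme values.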

How the results depend on the processing

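Most results kept their direction and their side of the threshold (131 values under other settings and 92 with 1 library left out). Where a value moved, the cause was not tested. The log2 difference of Irf4 between depots in immune nuclei turned to -0.050 with no filter on low counts, -0.0057 without the nuclei of the highest doublet scores (chosen after seeing the data) and -0.055 with classes by summed markers. The age change turned to 0.061 in B cells with uncorrected components, and in conventional dendritic cells to 0.019 without high doublet scores and 0.13 with uncorrected components. In FAPs it passed the threshold with DESeq2 (-4.21), no filter (-4.20), only the 2 groups compared (-4.21) and uncorrected components (-4.12). Taking adipocytes without immune-gene UMIs gave -5.70 with age.

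With the replicate block, where same-numbered libraries are paired, the epithelial change was -3.52 and lost its call, and genes called between depots in adipocytes went from 20 to 35. It changed no other call of Irf4. The numbers were not taken as pairs, after a check of the differences between the libraries within each group. The difference in a group, taken in number order, was correlated over genes with the same difference in another group. These correlations of differences ran from -0.117 to 0.120 in adipocytes and from -0.469 to -0.047 in immune nuclei. With the numbers crossed (chosen after seeing the data), 0 genes were called between depots in adipocytes and 0 in immune nuclei.

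Of all genes, 146 were called between depots in adipocytes with no filter and 0 with only the 2 groups compared. In immune nuclei DESeq2 called 81 with age and 197 between depots, and no filter gave 737 and 553. Of the list genes in adipocytes, 8 were called with age under library-size scaling and 9 with no filter or with only the 2 groups, against 5, and 3 between depots with no filter. In immune nuclei no filter called 2 with age and 5 between depots, and DESeq2 2 between depots.

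Thinned to 1500 UMIs and not thinned, mean shares with an Irf4 UMI were 1.28% and 1.56% in older SAT adipocytes, 1.67% and 2.57% in VAT adipocytes, 10.1% and 9.30% in young SAT immune nuclei, 9.32% and 8.98% in older SAT immune nuclei, and 8.26% and 8.58% in VAT immune nuclei.

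Leaving out 1 library, the age change ran from -6.20 to -4.95 in adipocytes, -0.84 to 0.18 in immune nuclei, -4.62 to -3.65 in FAPs, -3.79 to -3.30 in endothelial, -3.75 to -3.21 in epithelial, -8.42 to -0.90 in T, -0.55 to 0.26 in B, -0.14 to 0.89 in macrophage, -0.71 to -0.48 in mature dendritic and -1.06 to 0.21 in conventional dendritic nuclei. The value of -8.42 in T cells was set against a lone older library at 0 CPM, so its size is not a measured fold. The depot difference ran from -0.027 to 0.63 in adipocytes, -0.39 to 0.63 in immune nuclei, -0.50 to 0.99 in FAPs and -1.80 to -0.19 in macrophages. The sign turned without the first older SAT library in immune nuclei (both contrasts), B and conventional dendritic cells. It turned without the second older SAT library in adipocytes (depot, -0.027) and macrophages (-0.14), without the second 2-month library in B cells (0.10), and without the first VAT library in immune nuclei (depot, -0.16) and FAPs (depot, -0.50). Genes called ran from 483 to 2098 with age and 15 to 207 between depots in adipocytes, from 0 to 81 and 0 to 184 in immune nuclei, and for the lists from 2 to 10 and 0 to 1 in adipocytes and 0 to 0 and 0 to 2 in immune nuclei. A lone library was assumed to vary like the other groups.

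Endothelial nuclei gave no value under several settings, since the filter then removed Irf4. The planned removal of automatic doublet calls was not run, since these marked too few nuclei. Irf4 in older adipocytes rests on 4 to 68 UMIs in a library, which limits what the depot contrast can show.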
